A study of Homo sapiens with 12 samples.

Results

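The 6 receptor genes described here are *PPARG*, *PPARA* and *PPARD*, which encode the 3 peroxisome proliferator-activated receptors (PPARs), and *RXRA*, *RXRB* and *RXRG*, which encode the 3 retinoid X receptors (RXRs). They were taken by gene symbol from a count table of 23705 genes listed by NCBI gene number. All 6 were among the 13522 genes with enough counts to be tested. RNA came from A375, an established human melanoma cell line, in 3 independent experiments of 4 conditions each, which gave 12 libraries. Cells were cultured for 24 h with vehicle, with 5 μM rosiglitazone (RGZ), with 2 μM T0070907, or with 5 μM RGZ and 2 μM T0070907 together, called the combination. RGZ is an agonist of PPARγ, the protein encoded by *PPARG*, and T0070907 is an antagonist that binds the same receptor, so the combination asked whether an effect of RGZ depended on that receptor. A single cell line was used, and each library pooled the technical replicates of its experiment. The libraries held between 8319455 and 11375227 counts, and the libraries of the same experiment shared a number in the labels.

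PPARs and RXRs are ligand-activated transcription factors. A PPAR binds DNA as a heterodimer with an RXR, usually at a pair of AGGTCA half-sites that follow each other with a spacer of 1 base (DR1). With an agonist bound, the heterodimer exchanges corepressors for coactivators and raises transcription of genes of lipid uptake and oxidation. PPARγ is best known from fat cells, PPARα from fatty acid oxidation in liver and PPARδ from muscle and skin, while RXRα is common to most epithelia and RXRγ is restricted to fewer tissues. RXRs also pair with the retinoic acid, thyroid hormone, vitamin D and liver X receptors, so that these receptors draw on the same partners.

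The half-site that these receptors recognise was looked for before the listed starts of their own transcripts, to show where the letters occur in the genes that were measured. RefSeq (GRCh38.p14) gave 14 start sites for the 6 genes, and the 250 bases before each were searched on both strands for AGGTCA and for the DR1. *PPARG* had 2 half-sites before the start listed as 1, 217 and 184 bases away from it, and 1 further half-site in the overlapping windows of its starts 2 and 3. *RXRG* had 1 half-site on the opposite strand, 231 bases before its start. The windows of *PPARA*, *PPARD*, *RXRA* and *RXRB* held no half-site, and no window held a DR1. Over all 35116 promoter windows, 12.1% held a half-site and 0.0171% a DR1. Annotated exons covered 229 of the 250 bases in the window of *RXRG* and 222 and 232 bases in those of *PPARG* starts 2 and 3. The window of *PPARG* start 1 held 0 exon bases. The matches are a description of letters and not evidence of binding. The 4 half-sites are given 5′ to 3′ on the strand of the gene, with 10 bases on either side and the half-site, or its reverse complement, in capitals.
*PPARG*, start 1, chr3:12287141-12287166: cactttggacAGGTCAcgatggacag
*PPARG*, start 1, chr3:12287174-12287199: ggaaaagaaaAGGTCActgtctaccc
*PPARG*, start 3, chr3:12289036-12289061: cttttatataAGGTCAgtggtaggta
*RXRG*, chr1:165445342-165445367: gcctctctccTGACCTacaccgggcg

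The libraries expressed *SOX10*, a transcription factor of the melanocyte lineage, at 178 to 429 CPM, and *MITF*, the master regulator of that lineage, at 24.4 to 59.6 CPM. CPM scales each gene's count by the total of its library, after TMM scaling in edgeR. The pigmentation genes *TYR*, *DCT* and *MLANA* were at or close to 0, with 0, at most 1 and at most 6 counts per library, while *AXL*, a receptor kinase of dedifferentiated melanoma, stood at 383 to 584 CPM. *ADIPOQ*, which defines fat cells, had 0 counts in every library. Of the 3 leukocyte markers, *PTPRC* and *CD3E* had at most 2 and 1 counts, while *CD68*, a lysosomal protein best known from macrophages, stood at 33.2 to 97.3 CPM. Of the 4 keratinocyte markers, *KRT10* stood at 69.2 to 91.4 CPM, *KRT14* at 5.37 to 37.0 and *KRT5* at 0.107 to 2.77, and *KRT1* had 0 counts. Of the 4 fibroblast markers, *COL1A1* stood at 2.74 to 29.3 CPM, *LUM* at 3.00 to 7.41 and *DCN* at 0.305 to 2.33, and *COL1A2* had at most 4 counts.

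The levels of the 6 receptors were compared per kb of transcript. *PPARG* was the highest in all 4 conditions, with 40.5 ± 3.35 CPM per kb (SD, n = 3) in vehicle, 35.6 ± 2.35 with RGZ, 40.4 ± 3.00 with T0070907 and 41.0 ± 5.62 in the combination. *RXRB* was the second highest, at 17.9 ± 0.380 CPM per kb in vehicle, and its libraries did not overlap those of *PPARG* or of the next gene in any condition. *PPARD* and *RXRA* followed with 6.44 ± 0.718 and 6.40 ± 0.328 CPM per kb in vehicle, and their libraries overlapped in all 4 conditions. *RXRG* came next with 3.63 ± 2.52 CPM per kb in vehicle and 1.56 ± 1.19 with RGZ. It overlapped its higher neighbour in vehicle, T0070907 and the combination, and did not overlap *PPARD* with RGZ, where it ran from 0.831 to 2.93 CPM per kb. *PPARA* was the lowest by mean, at 0.861 ± 0.0551 CPM per kb in vehicle, and overlapped *RXRG* only in the combination. These levels divide by the longest annotated transcript of each gene. With the union of all exons as the length the vehicle order was the same for 6 of 6 genes, but the levels moved. *PPARG* was then at 18.1 CPM per kb in vehicle, and *PPARD* (5.45) and *RXRA* (3.33) were further apart. Without division by length the vehicle order was the same for 2 of 6, as *PPARA* (9.995 kb) changed places with *RXRG* (2.252 kb) and *PPARD* (3.774 kb) with *RXRA* (5.77 kb).

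**Figure D1:**
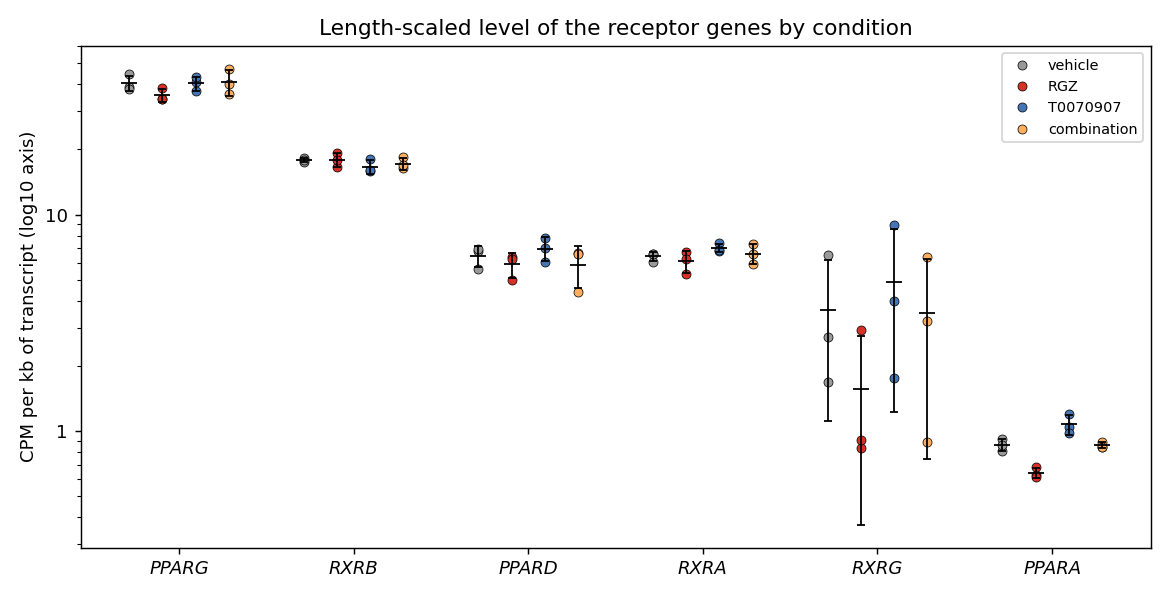
Level of each receptor gene in CPM per kb of its longest transcript (log10 axis), with 1 point per library, coloured by condition, and the mean ± SD of 3 libraries in black. *PPARG* (36 to 41 on average) and *RXRB* stand apart in every condition, *PPARD* and *RXRA* overlap, and *RXRG* spreads over the widest range of any of the 6 genes.

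How the receptors changed with each treatment was tested for all 13522 genes in 1 model with the quasi-likelihood test of edgeR. A gene was called where its Benjamini-Hochberg adjusted p was below 0.05. Since the libraries of 1 experiment shared their deviations, each comparison was also fitted with the experiment as a term, the replicate block. Without the block, 0 of the 6 receptors were called for RGZ against vehicle, where 1.24% of all tested genes were. With the block 1 of 6 was called, *RXRG*, beside 9.3% of all genes. For T0070907 against vehicle, 0 of 6 were called by either fit, beside 0.0074% of all genes without the block and 0.91% with it. For the combination against vehicle 0 of 6 were called and 0% of all genes by either fit. The combination against RGZ called 0 of 6 without the block (1.24% of all genes) and 2 of 6 with it, *RXRG* and *PPARG* (11.4% of all genes). The combination against T0070907 called 0 of 6 by either fit, beside 0.037% and 8.76% of all genes. The interaction, which asks whether RGZ acted differently with T0070907 present, was called for 0 of 6 receptors, beside 0% and 0.281% of all genes.

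Some receptors that were not called stood below an unadjusted p of 0.05. Without the block this was *PPARA* alone, in 4 comparisons (RGZ and T0070907 against vehicle, and the combination against each compound). Of the 13522 tested genes, edgeR without the block put 1421 and 419 below this p for RGZ and T0070907 against vehicle. It put 1773 and 2028 there for the combination against RGZ and against T0070907. DESeq2 and limma-voom without the block also called 0 of 6 in every comparison. At an unadjusted p below 0.05, limma-voom marked *PPARA* in the same 4 comparisons and DESeq2 in RGZ against vehicle and in the combination against RGZ. With the block, edgeR and limma-voom each marked 3 receptors for RGZ against vehicle and for the combination against RGZ (*PPARG*, *PPARA* and *RXRG*), 2 for T0070907 against vehicle (*PPARA* and *RXRG*) and 3 for the combination against T0070907 (*PPARA*, *PPARD* and *RXRG*). Of all tested genes, edgeR with the block put 2982 below this p for RGZ against vehicle and 1328 for T0070907 against vehicle. It put 3455 there for the combination against RGZ and 3758 for the combination against T0070907. In the combination against vehicle, the count at an unadjusted p below 0.05 was 0 of 6 by edgeR, DESeq2 and limma-voom, with and without the block where it was fitted. In the interaction it was 0 of 6 for all 3 tools without the block and 2 of 6 for edgeR with it, *PPARG* and *RXRG*.

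**Figure D2:**
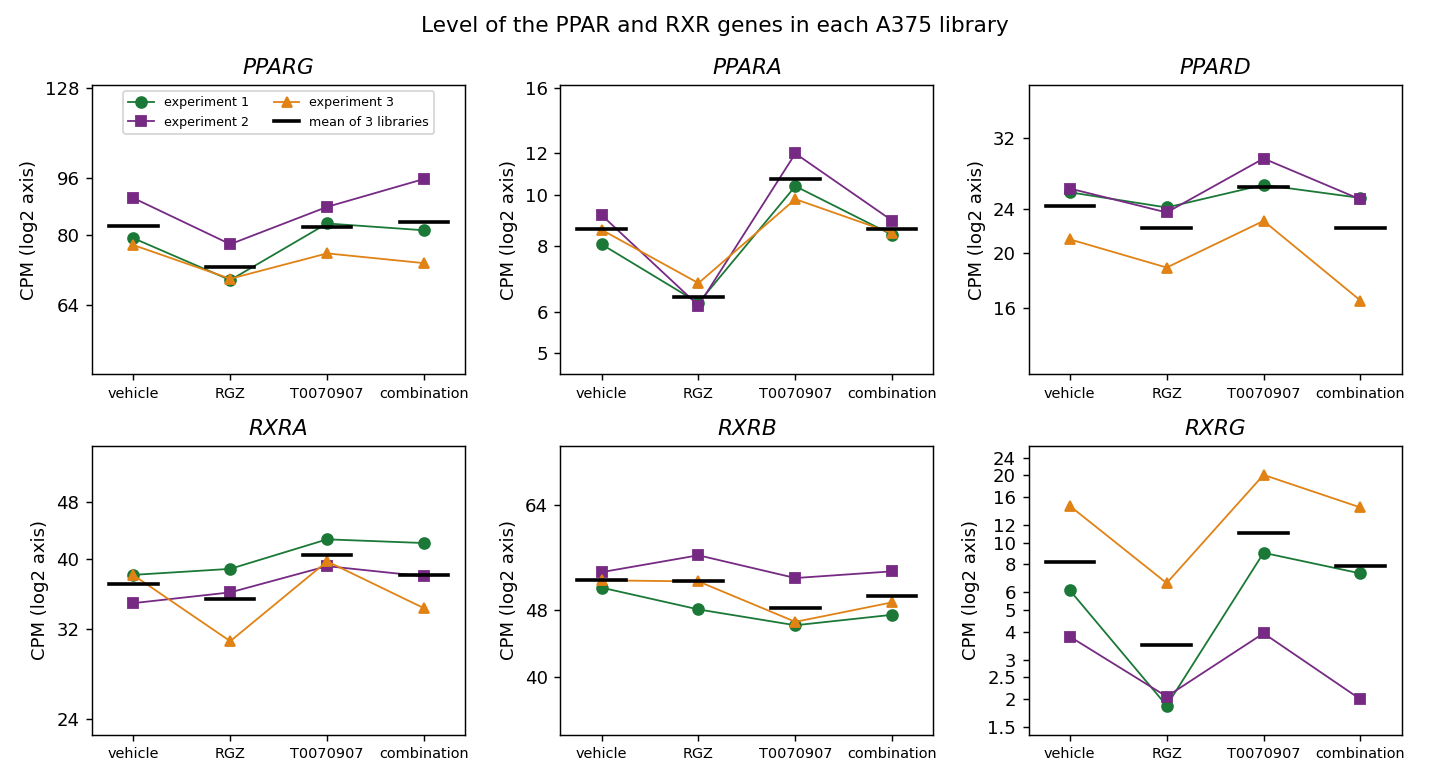
TMM-scaled CPM (log2 axis, its own range in each panel) of the 6 receptor genes in the 12 libraries, with a line joining the libraries of 1 experiment across conditions and a black bar at the mean of 3 libraries. In *PPARA* the 3 lines lie close together and dip with RGZ and peak with T0070907, whereas in *RXRG* they are far apart and the line of experiment 3 is the highest in all 4 conditions.

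*PPARG* encodes the receptor that both compounds bind. In vehicle it was at 79.1, 90.0 and 77.4 CPM in experiments 1, 2 and 3, from 658 to 756 counts. With RGZ it was at 69.2, 77.6 and 69.5 CPM, with T0070907 at 82.9, 87.5 and 75.4 CPM, and in the combination at 81.2, 95.6 and 73.1 CPM. Within each experiment the RGZ library was the lowest of the 4, while the highest RGZ library (77.6 CPM) just reached the lowest of vehicle (77.4 CPM). The RGZ to vehicle ratio was 0.875, 0.863 and 0.898, so that the 3 experiments differed little in it. The fitted log2 change was -0.19 ± 0.10 (SE), and its edgeR adjusted p was 0.573, or 0.0823 with the block. With the block the 95% interval of the change was -0.32 to -0.05 on the log2 scale.

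With T0070907 alone the libraries of *PPARG* overlapped those of vehicle, although the library of experiment 3 (75.4 CPM) lay below all 3 of them, and the log2 change was -0.0045 with a 95% interval of -0.23 to 0.22. The combination against vehicle gave 0.02, with an interval of -0.21 to 0.24. Compared with RGZ alone the combination was higher in 3 of 3 experiments, by 1.17, 1.23 and 1.05 times. That log2 change was 0.21 ± 0.10 without the block (edgeR adjusted p = 0.418) and 0.20 ± 0.06 with it (adjusted p = 0.0483). This call lay at the threshold. It was kept in 2 of 9 alternatives that also had the block, among which the edgeR adjusted p ran from 0.0478 to 0.201, and it was lost without any 1 of the 3 RGZ libraries or without the combination library of experiment 1 or 2.

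*PPARA*, whose product drives fatty acid oxidation in liver, was the receptor whose libraries followed the treatments most closely. Its counts were low, at 71, 77 and 73 in vehicle and 68, 85 and 79 in the combination. The RGZ libraries held 60, 54 and 67 counts, and those of T0070907 held 90, 134 and 114. Scaled, these were 8.06, 9.16 and 8.59 CPM in vehicle and 6.24, 6.17 and 6.80 CPM with RGZ. They were 10.4, 12 and 9.82 CPM with T0070907, and 8.40, 8.94 and 8.47 CPM in the combination. Every RGZ library lay below every vehicle library, every T0070907 library lay above them, and the combination libraries lay within the range of vehicle. *PPARA* was the only receptor whose groups did not overlap for RGZ against vehicle (16.8% of all tested genes had such groups), for the combination against RGZ (17.7%) and for the combination against T0070907 (18.7%). For T0070907 against vehicle the groups of *PPARA* and of *RXRA* did not overlap (7.67%), and for the combination against vehicle those of 0 of 6 receptors did not (12.2%).

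None of these differences in *PPARA* passed the adjusted threshold. The log2 change with RGZ was -0.43 ± 0.13, a fold of 0.745 with a 95% interval of 0.613 to 0.904, with an edgeR adjusted p of 0.193, or 0.0612 in the blocked fit. With T0070907 it was 0.32 ± 0.12 (edgeR adjusted p = 1.00 without the block and 0.346 with it). The combination against RGZ gave 0.43 ± 0.13 (adjusted p = 0.174, and 0.0509 with the block), and the combination against T0070907 gave -0.32 ± 0.12 (0.28, and 0.0955 with the block). Against vehicle the combination gave 0.00027, with an interval of -0.27 to 0.28. A library with 60 counts has an exact Poisson 95% interval of 45.8 to 77.2 counts.

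*PPARD*, the receptor of muscle and skin, was at 25.7, 26.1 and 21.2 CPM in vehicle and at 24.1, 23.6 and 18.9 CPM with RGZ. It was at 26.5, 29.5 and 22.8 CPM with T0070907 and at 25.1, 24.9 and 16.5 CPM in the combination. Experiment 3 gave the lowest library of every condition. Without the block the log2 change was -0.13 with RGZ (95% interval -0.50 to 0.24), 0.11 with T0070907 (-0.26 to 0.48) and -0.13 in the combination (-0.50 to 0.24). With the block it was -0.13 (-0.32 to 0.06), 0.12 (-0.07 to 0.30) and -0.14 (-0.34 to 0.05). Within the experiments *PPARD* was below vehicle with RGZ and in the combination, and above it with T0070907, in 3 of 3 each. The combination was below T0070907 in 3 of 3 experiments, by factors of 0.948, 0.846 and 0.723, with a log2 change of -0.26 ± 0.09 and an edgeR adjusted p of 0.0747 with the block, and -0.24 ± 0.17 and 0.526 without it.

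*RXRG* had the largest fitted change with RGZ and the widest spread between libraries of the 6 receptors. Besides its role as a heterodimer partner, it is known as a gene of neural crest-like melanoma cells. Its counts were 54, 32 and 124 in vehicle and 18, 18 and 65 with RGZ. They were 78, 44 and 233 with T0070907, and 59, 19 and 134 in the combination. Scaled, these were 6.13, 3.81 and 14.6 CPM in vehicle and 1.87, 2.06 and 6.60 CPM with RGZ. They were 9.01, 3.94 and 20.1 CPM with T0070907 and 7.29, 2.00 and 14.4 CPM in the combination. The RGZ library of experiment 3 lay above the vehicle libraries of experiments 1 and 2, so the groups overlapped, although RGZ was lower than vehicle within each experiment. A library with 18 counts has an exact Poisson 95% interval of 10.7 to 28.4 counts.

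Within the experiments *RXRG* with RGZ was 0.305, 0.540 and 0.452 times its vehicle level. With the block it fell by 1.23 ± 0.21 on the log2 scale with RGZ, a fold of 0.426 with a 95% interval of 0.311 to 0.582 (edgeR adjusted p = 0.000824). Without the block the change was -1.21 ± 0.79 and the adjusted p was 0.641, and leaving out 1 library moved that change between -2.05 and -0.49. The call with the block was kept in 9 of 9 alternatives that also had the block, with edgeR or limma-voom adjusted p-values up to 0.0156. In bulk RNA, fewer cells of a type and less RNA per cell cannot be told apart.

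The combination brought *RXRG* to 3.89, 0.972 and 2.18 times its RGZ level, so that it was higher in 2 of 3 experiments and about level in experiment 2. With the block it rose by 1.15 ± 0.22 on the log2 scale (edgeR adjusted p = 0.00147, called in 9 of 9 alternatives with the block), and without it the change was 1.15 ± 0.79 with an adjusted p of 0.572, and between 0.37 and 2.00 when 1 library was left out. Against vehicle the combination was at 1.19, 0.525 and 0.984 times, with a log2 change of -0.08 with the block and a 95% interval of -0.47 to 0.31. T0070907 alone was at 1.47, 1.03 and 1.38 times vehicle, higher in 3 of 3 experiments, with a log2 change of 0.41 ± 0.17 with the block (edgeR unadjusted p = 0.0268, adjusted p = 0.411). The combination against T0070907 gave -0.49 ± 0.17 with the block (adjusted p = 0.0744). That difference was called in 2 of 9 alternatives with the block, without the filter on low counts (0.0231) and without the combination library of experiment 1 (0.0307). The interaction with the block was 0.74 on the log2 scale, with an unadjusted p of 0.0162 and an edgeR adjusted p of 0.391.

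Some markers of melanoma cell state were also called in the RGZ comparison with the block, where 588 of all 13522 tested genes were called lower. Of the 5 genes listed for neural crest and dedifferentiated melanoma, 3 were called lower with the block and 0 without it. They were *NGFR*, the neurotrophin receptor of neural crest cells (-1.18 ± 0.17 on the log2 scale), *TFAP2B*, a neural crest transcription factor (-0.61 ± 0.09), and *AXL* (-0.22 ± 0.07). *EGFR*, a growth factor receptor, and *SOX9*, a transcription factor linked to dedifferentiated melanoma, were not called, at -0.36 ± 0.16 and -0.25 ± 0.15. Of 8 melanocyte lineage genes 4 had enough counts to be tested, and *S100B* (-1.02 ± 0.13) and *MITF* (-0.34 ± 0.08) were called lower with the block, and 0 of the 4 without it. With T0070907 against vehicle *S100B* was called higher with the block (0.59 ± 0.11, edgeR adjusted p = 0.0119) and 0 of the 5 neural crest genes were called. Beside it, 0.91% of all tested genes were called with the block, 32 genes of them higher, and *S100B* was not called without the block. In the combination against RGZ, *S100B*, *NGFR*, *TFAP2B* and *MITF* were called higher with the block, while *AXL* was at 0.04 ± 0.07 and was not. In that comparison 11.4% of all tested genes were called with the block, 750 genes of them higher. Without the block 0 of the tested genes in either list were called. The summed level of the neural crest list was 680 to 865 CPM in vehicle, 498 to 693 CPM with RGZ, 751 to 902 CPM with T0070907 and 638 to 756 CPM in the combination.

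Some markers of other cell types were called as well with the block, beside 9.3% of all tested genes for RGZ, and none of them without it. With RGZ, *KRT14*, a keratin of basal keratinocytes (-0.94 ± 0.14 on the log2 scale), and *COL1A1*, a collagen chain (-0.76 ± 0.13), were lower and *CD68* (0.42 ± 0.07) was higher. Their adjusted p-values without the block were 0.523, 0.801 and 0.749 in edgeR. These were 1 of 3 tested keratinocyte markers, 1 of 3 tested fibroblast markers and the 1 tested leukocyte marker. The other members were not called with the block, with *KRT10* at 0.08 ± 0.08, *KRT5* at -0.89 ± 0.45, *LUM* at 0.02 ± 0.18 and *DCN* at -0.88 ± 0.51 on the log2 scale. In the combination against RGZ, where 11.4% of all tested genes were called with the block, *KRT14* was higher (1.10 ± 0.14) and *CD68* lower (-0.39 ± 0.07). There *COL1A1* was not called (0.37 ± 0.13). The part of any of these markers in the *RXRG* result was not tested.

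The other 2 RXR genes, which supply most of the RXR transcript, did not pass the test in any comparison with either fit. *RXRA*, the RXR of most epithelia, was at 38.0, 34.7 and 38.0 CPM in vehicle, at 38.8, 36.0 and 30.8 with RGZ, at 42.6, 39.1 and 39.7 with T0070907 and at 42.1, 37.9 and 34.2 in the combination. With RGZ it was slightly above vehicle in experiments 1 and 2 and below it in experiment 3 (0.809 times), which gave a log2 change of -0.07 with a 95% interval of -0.29 to 0.15. With T0070907 the 3 libraries lay above the 3 of vehicle, with a log2 change of 0.13 (-0.09 to 0.35) and an edgeR adjusted p of 1.00, or 0.661 in the blocked fit.

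*RXRB* had the smallest fitted change with RGZ of the 6 receptors. It was at 51.1, 53.3 and 52.1 CPM in vehicle, at 48.1, 55.8 and 52.0 with RGZ, at 46.1, 52.5 and 46.5 with T0070907 and at 47.4, 53.4 and 49.1 in the combination. Its log2 change was -0.0059 with RGZ, with a 95% interval of -0.18 to 0.17, and -0.11 with T0070907 (-0.28 to 0.06). The combination gave -0.06 (-0.24 to 0.11). Exons of *RXRB* share 244 bases with exons of *SLC39A7* on the opposite strand, and whether reads were counted by strand is not given in the sources used here, so its level may hold reads of that neighbour.

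**Figure D3:**
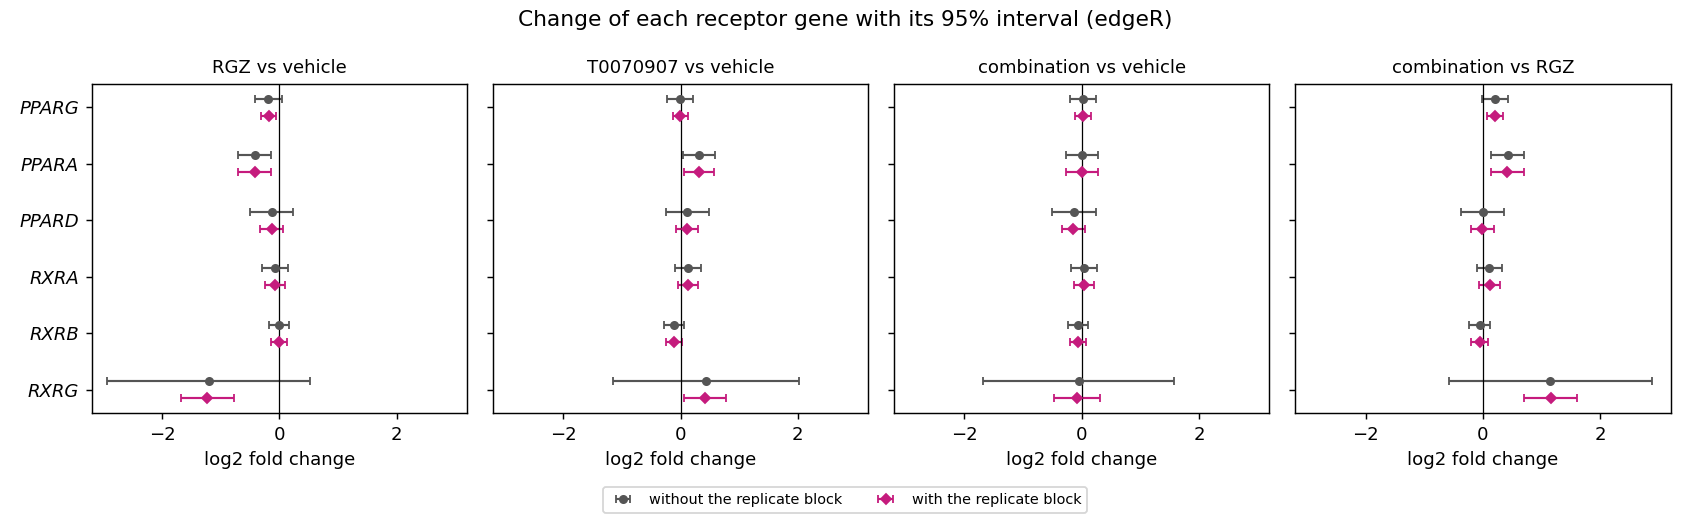
Fitted log2 fold change of each receptor gene with its 95% interval in 4 comparisons, from the model of the 4 conditions (grey circles) and from the model with the replicate block (magenta diamonds). The 2 intervals of *PPARA* are alike, whereas that of *RXRG* with RGZ runs from -2.93 to 0.52 without the block and from -1.68 to -0.78 with it.

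The spread between the 3 independent experiments was tested as a term of its own, over 4 conditions at a time. The term was called for 3 of the 6 receptors, *RXRG*, *PPARD* and *PPARG*, beside 30.5% of all tested genes. *RXRG* averaged 6.08, 2.95 and 13.9 CPM over the conditions of experiments 1, 2 and 3 (edgeR adjusted p = 2.66e-08), and ranked 216 of 13522 genes by the statistic. Experiment 3 was 2.25 above experiment 2 on the log2 scale, which is more than its fitted difference between RGZ and vehicle. *PPARD* averaged 25.3, 26.0 and 19.8 CPM (adjusted p = 0.00141), lowest in experiment 3, and *PPARG* averaged 78.1, 87.7 and 73.9 CPM (adjusted p = 0.00589), highest in experiment 2. *PPARA*, *RXRA* and *RXRB* were not called, with edgeR adjusted p-values of 0.579, 0.124 and 0.0953. The 3 calls were kept in each of 17 alternatives, and the other 3 genes were called in none of them.

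The order of *RXRG* over the experiments, highest in experiment 3 and lowest in experiment 2, was that of 20.1% of all tested genes. *SOX10* averaged 307, 211 and 408 CPM over the experiments, *S100B* 25.5, 14.3 and 42.7 CPM, and *TFAP2B* 33.8, 10.4 and 70.2 CPM, all in this order. *NGFR* averaged 203, 80.1 and 222 CPM and had it too. *SOX9* had the reverse order with 8.63, 23.4 and 2.01 CPM, as did *EGFR* with 16.7, 27.1 and 8.92 CPM. The reverse order was that of 21.2% of all tested genes. *MITF* and *PMEL* of the melanocyte list were also in the reverse order, so that neither list moved as a whole. Of the markers of other cell types, *KRT14* and *DCN* had the order of *RXRG*, and *KRT5*, *COL1A1*, *CDH5* and *CD68* had the reverse. The part of the cell state in the differences between experiments was not tested.

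**Figure D4:**
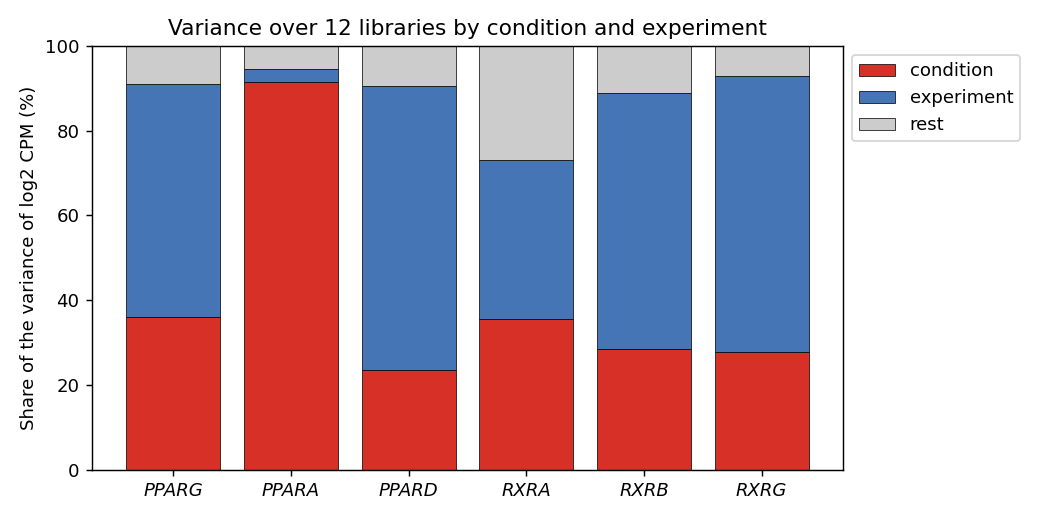
Share (%) of the variance of log2 CPM over the 12 libraries that lies between conditions, between experiments and in the rest, for each receptor gene. *PPARA* has 91.4% between conditions, while the other 5 genes have more between experiments than between conditions.

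As a description of the same libraries, the variance of log2 CPM was split into condition, experiment and rest. *PPARA* had 91.4% between conditions and 3.11% between experiments. *RXRG* had 27.8% between conditions and 65.2% between experiments, and *PPARD* had 23.5% and 67.0%. For *PPARG* the shares were 36.1% and 54.9%, for *RXRB* 28.5% and 60.3%, and for *RXRA* 35.5% and 37.5%. The median over all tested genes was 34.4% between conditions and 27.7% between experiments. The receptors thus fell on both sides of the typical gene, with *PPARA* alone well above it in the share of the conditions.

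The composition of the receptor pool was compared on the per kb scale of the longest transcript, and its levels depend on that length. With the union of exons (4.535 kb for *PPARG*, against 2.029 kb), vehicle means were 18.1 CPM per kb for *PPARG*, 5.45 for *PPARD* and 0.651 for *PPARA*. They were 13.3 for *RXRB*, 3.33 for *RXRA* and 3.03 for *RXRG*. The share of *PPARG* and the ratio of PPAR to RXR transcripts in vehicle were thus lower with the union than given below. *PPARG* made up 82.7% to 87.3% of the summed PPAR transcripts over the 12 libraries. The mean share was 84.7% ± 0.940 (SD, n = 3) in vehicle, 84.5% ± 1.43 with RGZ, 83.5% ± 0.687 with T0070907 and 86.0% ± 1.58 in the combination. Summed PPAR transcripts exceeded summed RXR transcripts by 1.73 ± 0.281 times in vehicle and 1.65 ± 0.105 times with RGZ. The ratio was 1.72 ± 0.294 with T0070907 and 1.77 ± 0.351 in the combination. *RXRG* ranged from 3.44% to 28.0% of the RXR transcripts, with means of 12.5% ± 7.50 in vehicle and 6.04% ± 4.48 with RGZ. The means were 16.4% ± 10.8 with T0070907 and 12.4% ± 9.21 in the combination. The share of *RXRG* was lower with RGZ and higher with T0070907 than with vehicle in 3 of 3 experiments, while its groups overlapped. In 15 comparisons of such shares, ratios and sums with vehicle, the two-sided exact permutation p was 0.2 or higher where 3 libraries against 3 allow no less than 0.1, and the adjusted p was 0.9 or higher. That test takes no account of the experiments. Within them, the summed PPAR transcripts were lower with RGZ than with vehicle in 3 of 3, at means of 42.1 ± 2.72 and 47.8 ± 3.90 CPM per kb. The share of *PPARG* was lower with T0070907 and higher in the combination in 3 of 3. The summed RXR transcripts were higher with T0070907 (28.5 ± 2.85 CPM per kb) and lower in the combination (27.3 ± 1.72) than with vehicle (28.0 ± 2.65) in 3 of 3. In experiment 1 the combination (26.85) and vehicle (26.89) were almost level. The agreement of direction over the experiments was not tested.

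The genes that act with these receptors were described from 4 lists. PPAR target readouts served to show whether the compounds acted, and some of them were named by the study as readouts on such cells, so that their direction is not independent evidence. Of 16 targets, 11 were called higher and 0 lower with RGZ without the block, and 13 higher with it, where 1.24% and 9.3% of all tested genes were called. Their median log2 change was 0.88 against -0.01 for all tested genes. *ANGPTL4*, a secreted inhibitor of lipoprotein lipase, went from 5.67 ± 2.50 CPM in vehicle to 428 ± 37.8 with RGZ and 19.4 ± 19.4 in the combination. *PDK4*, a brake on glucose oxidation, went from 9.51 ± 1.92 to 62.7 ± 9.42 and 11.5 ± 8.12 CPM, and *CREB3L3*, a transcription factor of lipid metabolism, from 0.508 ± 0.185 to 12.2 ± 2.34 and 1.38 ± 0.891 CPM. The fatty acid carrier *FABP4*, at 0.117 ± 0.0028 CPM in vehicle, reached 255 ± 127 CPM with RGZ, and the fatty acid transporter *CD36* reached 3.80 ± 0.776 CPM from 0.115 ± 0.114. With T0070907, 6 targets were called lower with the block and 0 without it (median -0.58), beside 0.91% and 0.0074% of all genes. In the combination 0 of 16 were called against vehicle by either fit, as were 0% of all genes. There 14 of 16 targets were above vehicle, with a median log2 change of 0.21 against -0.00095 for all tested genes.

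Among the other receptors that pair with RXR, 11 of 13 had enough counts to be tested. With RGZ, 0 were called without the block, and 1 higher and 2 lower with it, beside 1.24% and 9.3% of all tested genes. *NR1H3*, which encodes the liver X receptor α of cholesterol metabolism, rose by 1.03 ± 0.10 on the log2 scale with the block, from 26.2 ± 10.6 CPM in vehicle to 53.7 ± 22.7 CPM. *VDR*, the vitamin D receptor, fell by 0.40 ± 0.07 on the log2 scale, from 49.9 ± 2.96 to 37.8 ± 1.65 CPM, and *THRA*, the thyroid hormone receptor α, fell by 0.39 ± 0.10 from 19.4 ± 1.03 to 14.8 ± 0.866 CPM. Their edgeR adjusted p-values with the block were 1.91e-06, 0.000956 and 0.0155. With T0070907 *NR1H3* fell by 0.63 ± 0.11 on the log2 scale with the block (adjusted p = 0.0091), and no other partner was called. Without the block 0 partners were called with T0070907. The shares of all tested genes were 0.91% with the block and 0.0074% without it. The median log2 change of the list was -0.07 with RGZ, against -0.01 for all tested genes.

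Of 16 coregulators, the proteins that PPARs recruit or release on binding a ligand, 0 were called with RGZ without the block and 1 with it, a share below the 9.3% of all tested genes called with the block. The gene was *TBL1X*, a subunit of the NCoR corepressor complex, which rose by 0.51 ± 0.06 on the log2 scale with RGZ and fell by 0.30 ± 0.06 with T0070907, both with the block. It stood at 142 ± 13.5 CPM in vehicle, 203 ± 12.6 with RGZ, 115 ± 13.3 with T0070907 and 136 ± 19.4 in the combination. For T0070907, 1 of 16 coregulators was called lower with the block and 0 without it, beside 0.91% and 0.0074% of all tested genes. The median log2 change of the coregulators was 0.01 with RGZ, against -0.01 for all tested genes. In the combination against vehicle, where no gene of any kind was called, 14 of 16 coregulators were below vehicle, with a median of -0.17 against -0.00095 for all tested genes.

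Of 10 genes of retinoid handling, which set the supply of the acids that RARs bind, 5 had enough counts to be tested. With RGZ 1 was called higher without the block, and 2 higher and 1 lower with it, beside 1.24% and 9.3% of all tested genes. *RDH10*, which oxidises retinol, rose by 0.63 ± 0.13 on the log2 scale with RGZ, from 15.9 ± 0.709 to 24.7 ± 2.31 CPM (edgeR adjusted p = 0.0425 without the block). With the block *CYP26B1*, which degrades retinoic acid, also rose, by 1.06 ± 0.19 from 6.68 ± 2.08 to 14.1 ± 6.59 CPM, and *DHRS3*, which reduces retinal to retinol, fell by 0.61 ± 0.10 from 55.8 ± 6.55 to 36.9 ± 10.2 CPM. The median over these 5 genes was -0.16, against -0.01 for all tested genes. In the combination against vehicle, 0 members of the partner, coregulator and retinoid lists were called by edgeR with or without the block.

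The genes whose log2 CPM was most like that of each receptor over the 12 libraries were taken from 13217 tested genes that averaged 1 CPM or more. All points share the experiments, the treatments and the scaling, so the values describe likeness in these libraries. *PPARA* was most like *NISCH* (Pearson r = 0.957) and *BAIAP2-DT* (0.957), and *RXRG* was most like *LINC00327* (0.974) and *FAM133A* (0.966). *PPARG* was most like *LZTS3* (0.940) and *SCG5* (0.934), and *PPARD* was most like *RPA1* (0.952) and *RAI14* (0.950). The nearest genes of *RXRA* were *UBTF* and *GPATCH1* (0.854 each), and those of *RXRB* were *F11R* (0.901) and *CAMTA2* (0.890). Among the receptors themselves, r ran from -0.55 for *RXRA* and *RXRB* to 0.64 for *PPARG* and *PPARD*.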

How the data were processed

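RNA-seq of 12 A375 libraries was analysed. The authors deposited raw counts per gene, without normalization, and the processing notes name the build hg19. The aligner, counter and strand setting are not given in the sources used here, and 0 columns belonged to other samples. NCBI gene numbers were matched to symbols (23538 of 23705).

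Counts were scaled by TMM and filtered by filterByExpr in edgeR 4.0.16 (R 4.3.3). A quasi-likelihood model of 4 groups was fitted to all 12 libraries, and p-values were adjusted over 13522 genes. Standard errors were taken as the absolute log2 change over the square root of F, and 95% intervals use the t quantile of the fit. The design text names 3 independent experiments, and the number in the sample titles was taken as the experiment and gave the replicate block. Over 18 pairs of same-numbered libraries, deviations from the group means correlated at 0.0793 to 0.758 (mean 0.554). CPM per kb divides by the longest GENCODE 29 transcript. Shares and ratios were compared by two-sided exact permutation tests. Promoter windows came from RefSeq (GRCh38.p14), and motifs were found by exact match. Poisson intervals cover counting error only. Alternatives were limma-voom (limma 3.58.1), DESeq2 1.42.0, DESeq2's size factors, no filter, at least 10 counts in every library, only the groups compared, other lengths, and leaving out each library. The same alternatives within the block were chosen after seeing the data. Code was tested on simulated data. The receptors, lists and markers were chosen with earlier results of these data known. Named were the 6 receptors, called list members (at most 6 a list by size of change with RGZ, of which 1 is not reported here), and the 2 genes most like each receptor. Marker changes by condition were added after their levels were seen.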

Additional observations from a re-analysis of the deposited data

How the results depend on the processing

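The replicate block moved the counts of called receptors: with it edgeR called 1 receptor for RGZ against vehicle and 2 for the combination against RGZ, where limma-voom with the block called 1 and 1. In the other comparisons with each compound or vehicle it changed no call. With the block and no filter on low counts, edgeR called 1 for the combination against RGZ and 1 for the combination against T0070907. Leaving out each library with the block gave 1 to 1 for RGZ against vehicle, 1 to 2 for the combination against RGZ and 0 to 1 for the combination against T0070907. The cause was not tested.

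Of 534 log2 changes of single receptors under an alternative to the fit without the block, 33 had the other sign, 29 of them on leaving out 1 library, and 0 of the 33 were called in either fit. Alternatives to the fit with the block are not among them, and there the sign changed, for example, in 5 of 9 for *PPARA* in the combination against vehicle and in 3 of 9 for *PPARD* in the combination against RGZ. The ranges without each library were, for RGZ against vehicle, -0.15 to 0.018 for *RXRA* and -0.059 to 0.047 for *RXRB*. For T0070907 they were -0.055 to 0.065 for *PPARG* and -0.35 to 1.15 for *RXRG*. For the combination against vehicle they were -0.092 to 0.11 for *PPARG*, -0.045 to 0.049 for *PPARA*, -0.23 to 0.041 for *PPARD*, -0.036 to 0.11 for *RXRA* and -0.84 to 0.66 for *RXRG*. For the combination against RGZ the range was -0.11 to 0.17 for *PPARD*, and against T0070907 -0.088 to 0.11 for *PPARG*, -0.0035 to 0.11 for *RXRB* and -1.27 to 0.30 for *RXRG*. For the interaction they were -0.22 to 0.061 for *PPARD*, -0.11 to 0.058 for *RXRA* and -0.065 to 1.56 for *RXRG*. *PPARA* in the combination against vehicle was at -0.000608 with the block, -0.000987 in limma-voom with the block, -0.000355 with at least 10 counts and -6.69e-05 with only the groups compared.

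Without division by length the share of *PPARG* with RGZ differed from vehicle by 0.20 percentage points (-0.23 as reported), and 2 of 6 genes kept their place in the order. The PPAR to RXR ratio with T0070907 differed by 0.0071 with the union of exons and 0.0068 without length (-0.0097 as reported). Without each library the share differed by -0.87 to 0.54 points with RGZ, -1.80 to -0.89 with T0070907 and 0.52 to 2.08 in the combination, and the ratio by -0.22 to 0.063, -0.15 to 0.15 and -0.13 to 0.22. Counts of 18 to 233 limit *RXRG*, and 54 to 134 limit *PPARA*.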
